A study of Rattus norvegicus with 6 samples.

Results

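Connexins are the proteins of gap junctions, and 4 connexin genes of glia were examined here: Gja1 (Cx43), Gjb2 (Cx26) and Gjb6 (Cx30), which are known as astrocyte connexins, and Gjb1 (Cx32), known as an oligodendrocyte connexin. They were taken by name, and all 4 were measured, out of 13355 genes with a valued probe set of a single symbol. Each gene had 1 such probe set (10830189 for Gja1, 10784117 for Gjb2, 10784120 for Gjb6 and 10934378 for Gjb1). RNA came from cultured primary rat OPCs (oligodendrocyte progenitors, the glia that mature into myelin-making oligodendrocytes), prepared from newborn pups and kept in medium with PDGF and NT3 before use. One group was given fibrinogen, the blood clotting protein, for 48 h in differentiation medium (3 arrays); the other group was unstimulated with the same 48 h in its titles (3 control arrays, medium not stated). Strain and genotype are not given in the sources used here, and nothing says that the arrays of a group came from separate preparations, so p-values measure the spread between these arrays, which may be technical. The study's title links fibrinogen to BMP signaling in these cells and to impaired remyelination.

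As background, connexin subunits assemble into a channel in each of a pair of touching cells, and the docked channels let ions and small molecules pass between the cells. Gja1 is the main connexin of astrocytes and couples them into a network, Gjb6 is its partner in mature grey-matter astrocytes, and Gjb2 is a further astrocyte connexin that is also used in the inner ear. Gjb1 is found in oligodendrocyte processes and myelin, where it docks with Gjb6 of astrocytes, and in people its mutation causes an inherited neuropathy of myelinating Schwann cells.

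The stretch before the transcription start of Gja1 and Gjb1 is shown because their changes are set against each other below. The sequences are RefSeq's, build GRCr8, the 250 bases before the listed start, and the arrays carry no measurement of which start was used. Genes can have several starts: the end of the Gja1 stretch and the stretches of Gjb2 and Gjb6 described below lie inside the annotated genes, and for Gjb6, with 2 listed starts, the first was taken. Capitals mark matches to any searched motif on either strand. The AP-1 site was searched as TGANTCA. The palindrome of BMP-responsive SMAD elements was searched as GGCGCC and a SOX site as ACAAAG. The TATA box was searched as TATAAA, and a TATA-like run, added after these sequences were read, as TTAAAA. Gja1 lies at chr20:36302314-36302563 on the plus strand and Gjb1 at chrX:70541595-70541844 on the plus strand.
Gja1: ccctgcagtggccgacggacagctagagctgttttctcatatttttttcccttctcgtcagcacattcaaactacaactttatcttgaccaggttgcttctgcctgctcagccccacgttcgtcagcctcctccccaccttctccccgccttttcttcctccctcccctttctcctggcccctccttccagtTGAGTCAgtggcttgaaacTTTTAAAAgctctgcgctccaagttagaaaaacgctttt
Gjb1: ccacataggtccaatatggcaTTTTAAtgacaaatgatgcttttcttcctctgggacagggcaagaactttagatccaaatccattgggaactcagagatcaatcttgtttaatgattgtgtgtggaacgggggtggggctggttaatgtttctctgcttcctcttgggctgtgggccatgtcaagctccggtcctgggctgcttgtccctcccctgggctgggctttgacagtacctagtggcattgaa

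The Gja1 stretch held 1 AP-1 match, which begins 58 bases before the start, and a TTTTAAAA run 39 bases before it, in which a TTAAAA match on each strand overlaps. An AP-1 match was found in 6.36% of the 27457 rat promoters of this length. The Gjb1 stretch held no match to the AP-1, SMAD, SOX or TATA letters, and a single TTAAAA match on the minus strand 229 bases before the start. This stretch ends where the annotated Gjb1 gene begins, and bases inside the gene were not searched. The missing matches therefore say nothing of any start within Gjb1. The corresponding stretches of Gjb2 and Gjb6 had TTAAAA 29 and 51 bases before their starts (18.9% of promoters hold it), and that of Gjb2 had GGCGCC 23 bases before its start (9.24% of promoters). G and C made up 51.2% of the Gja1 stretch, 49.2% of that of Gjb1, 67.2% of that of Gjb2 and 68.0% of that of Gjb6, beside a median of 52.0% over all promoters. Gjb2 and Gjb6 are direct neighbours among the protein-coding genes of the rat RefSeq annotation, with another connexin gene, Gja3, close by on the same chromosome.

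Only the probe sets of Gjb1 and Gja1 were clearly brighter than those of a gene class with no known use in glia. Over 647 olfactory receptor genes the mean log2 expression had a median of 3.57 and a 95th percentile of 4.93. Gjb1 averaged 6.65 over the 6 arrays and Gja1 5.81, above all 647 and above 99.2% of the olfactory receptor genes. Gjb2 averaged 4.57, above 88.1% of them, and Gjb6 averaged 3.65, above 53.5% of them. Whether Gjb2 and Gjb6 carried signal above background cannot be told from these levels. Probe sets differ in how brightly they respond, no detection call accompanies the values, and the levels of the connexins were not compared with each other.

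**Figure D1:**
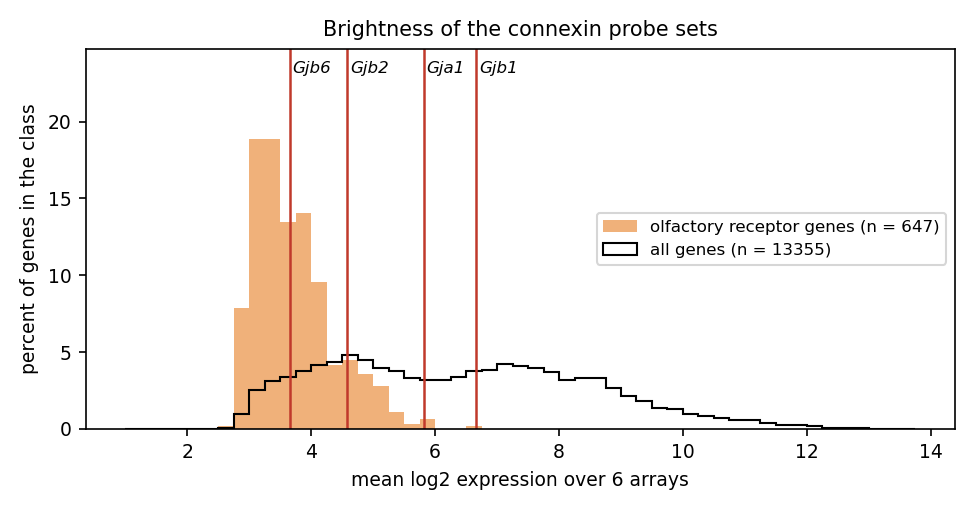
Percent of genes (vertical axis) by mean log2 expression over 6 arrays (horizontal axis), for 647 olfactory receptor genes (orange) and all 13355 genes (black outline), with the 4 connexins as red lines. Gjb6 at 3.65 lies in the middle of the olfactory receptor genes and Gjb2 at 4.57 in their upper part, while Gja1 at 5.81 and Gjb1 at 6.65 lie at or beyond their upper end.

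No connexin of the 4 passed the test between fibrinogen and control arrays. In limma, 0 of the 4 had an adjusted p under 0.05 and 0 of the 4 an unadjusted p under 0.05, whereas 7.16% of all genes passed at the adjusted p and 21.1% at the unadjusted p. The values of the groups overlapped for all 4 connexins, while 27.0% of all genes had no overlap. The mean was higher with fibrinogen for Gjb1 and Gjb2 and lower for Gja1 and Gjb6, and the median log2 change of the 4 was 0.01, beside 0.003 over all genes. Since RNA was taken from whole cultures, fewer cells of a type and less RNA per cell cannot be told apart in any of these values.

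Gja1, the main channel gene of astrocyte networks, had a log2 expression of 5.70, 5.87 and 5.72 on fibrinogen arrays, against 5.88, 5.80 and 5.90 on control arrays. Fibrinogen arrays 1 and 3 lay below every control array, and fibrinogen array 2 lay among them. The means were 5.76 ± 0.09 with fibrinogen and 5.86 ± 0.05 in control (SD, n = 3 each), a log2 fold change of -0.10 (SE 0.08, 95% interval -0.29 to 0.09, adjusted p = 0.565 in limma). That 95% interval allows at most a 1.22-fold fall or a 1.07-fold rise in the measured signal, which was dimmer than that of the median gene (43.5% of genes were dimmer than Gja1). Gja1 was also among the steadier genes, since 19.7% of genes had a smaller SD within groups than its 0.08.

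Gjb2, a smaller component of astrocyte junctions, had a log2 expression of 4.67, 4.55 and 4.69 on fibrinogen arrays, against 4.42, 4.44 and 4.67 on control arrays. Control array 3 lay at the level of the fibrinogen arrays, and the other control arrays lay below all of them. The log2 fold change was 0.13 (SE 0.09, 95% interval -0.10 to 0.35, adjusted p = 0.516 in limma), so a rise of up to 1.27-fold in the measured signal is allowed. Since that signal may be background alone, the interval sets no limit on a change of the Gjb2 transcript.

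Gjb6, the second connexin of mature astrocytes, had a log2 expression of 3.73, 3.41 and 3.47 on fibrinogen arrays, against 3.97, 3.70 and 3.62 on control arrays. Control array 1 was the highest of the 6, and fibrinogen array 1 lay within the control range. The log2 fold change was -0.23 (SE 0.13, 95% interval -0.52 to 0.07, adjusted p = 0.374 in limma), which allows at most a 1.44-fold fall in the measured signal. That signal may be background alone, so a larger change of the Gjb6 transcript is not excluded. The log2 fold change was -0.12 without control replicate 1 and -0.32 without fibrinogen replicate 1, and it passed the threshold in neither case.

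Gjb1, the oligodendrocyte connexin, had a log2 expression of 6.82, 6.65 and 6.85 on fibrinogen arrays, against 6.47, 6.73 and 6.41 on control arrays. Fibrinogen arrays 1 and 3 lay above every control array, and control array 2 lay above fibrinogen array 2. The means were 6.77 ± 0.11 with fibrinogen and 6.54 ± 0.17 in control (SD, n = 3 each), a log2 fold change of 0.24 (SE 0.11, 95% interval -0.02 to 0.49, adjusted p = 0.275 in limma). The interval allows a rise of up to 1.41-fold and a fall of at most 1.01-fold in the measured signal. In absolute size this change exceeded that of 75.1% of genes.

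**Figure D2:**
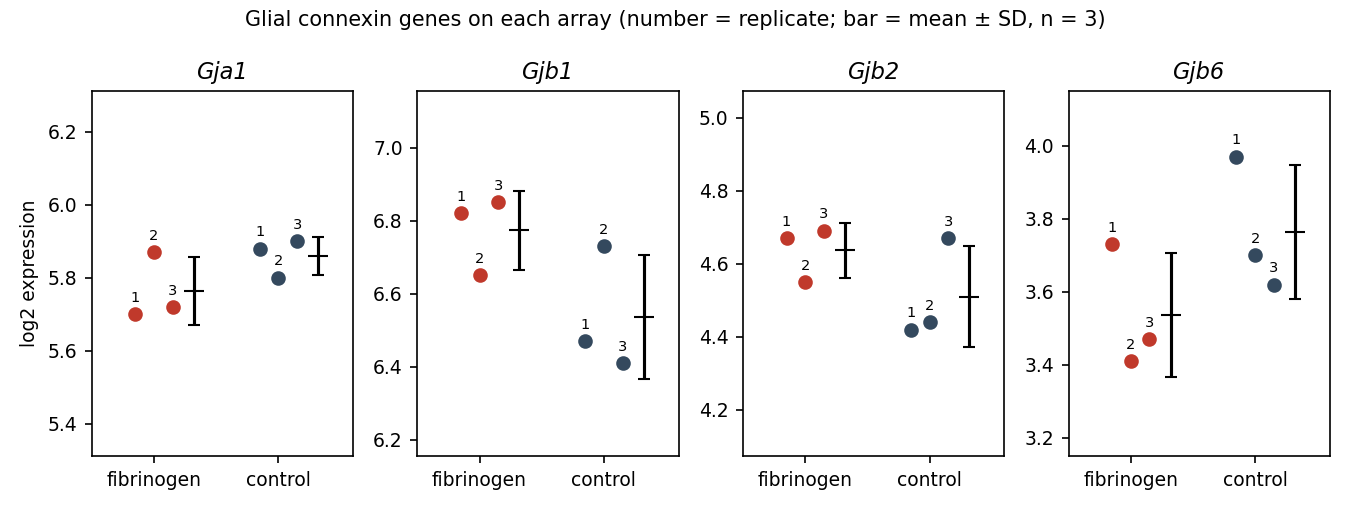
Log2 expression (vertical axes, each spanning 1 unit) of Gja1, Gjb1, Gjb2 and Gjb6 on the 3 fibrinogen (red) and 3 control (dark) arrays, with replicate numbers and the mean ± SD beside the points. The groups overlap in every panel, through fibrinogen array 2 for Gja1, control array 2 for Gjb1, control array 3 for Gjb2 and fibrinogen array 1 for Gjb6.

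The astrocyte connexins were set against the oligodendrocyte connexin within each array, which asks whether the changes of a pair of genes were unequal. With 3 arrays a group, the two-sided exact permutation test cannot go below 0.1, so no pair could pass 0.05. Gjb6 changed by -0.46 relative to Gjb1 on the log2 scale (SE 0.17, exact permutation p = 0.1, adjusted over 3 pairs 0.3), and the groups did not overlap. The within-array difference of Gjb6 minus Gjb1 was -3.09, -3.24 and -3.38 on fibrinogen arrays, against -2.50, -3.03 and -2.79 on control arrays. All 3 fibrinogen arrays lay below the lowest control array, with a gap of 0.06 at the nearest pair. Since the signal of Gjb6 and Gjb2 may be background alone, a difference of either from Gjb1 may restate the change of Gjb1 and not measure their own. Gja1 changed by -0.33 relative to Gjb1 (SE 0.17, exact permutation p = 0.2, adjusted 0.3), with the difference at -1.12, -0.78 and -1.13 on fibrinogen arrays, against -0.59, -0.93 and -0.51 on control arrays. Fibrinogen array 2 and control array 2 crossed over for that pair. Gjb2 changed by -0.11 relative to Gjb1 (SE 0.16, exact permutation p = 0.7, adjusted 0.7), and it was 0.03 without control replicate 3.

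**Figure D3:**
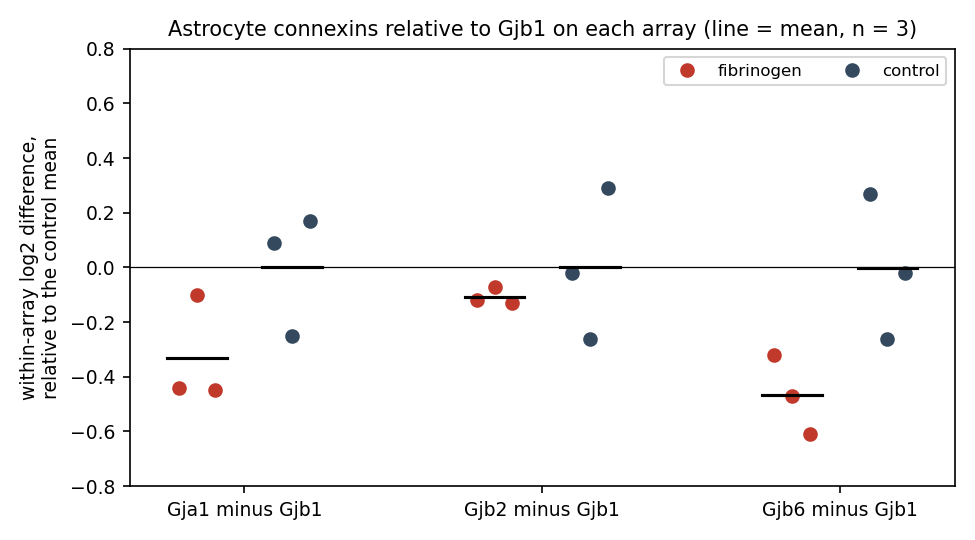
Within-array log2 difference of Gja1, Gjb2 and Gjb6 from Gjb1, relative to the control mean of each pair (vertical axis), for 3 fibrinogen (red) and 3 control (dark) arrays, with lines at the means. The fibrinogen arrays lie below the control arrays without overlap for Gjb6 minus Gjb1 (mean change -0.46) and overlap them for the other pairs; the signal of Gjb6 and Gjb2 may be background alone.

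The connexins were next placed beside genes of the cells they are named for. Of 14 measured astrocyte markers, 7 rose with fibrinogen, 7 did not pass and none fell, where 4.16% of all genes rose. Their median log2 change was 0.37, and the count of rises was 6 or 7 with any one array left out. With genes below the median brightness left out, 7 of 11 astrocyte markers rose, where 829 of 6678 genes did. Gfap, the intermediate filament of astrocytes, had a log2 expression of 10.66, 10.71 and 10.67 on fibrinogen arrays, against 9.67, 9.75 and 9.61 on control arrays (log2 fold change 1.00, adjusted p = 0.00162 in limma). Slc1a3, the glial glutamate transporter, rose by 0.61 on the log2 scale (adjusted p = 0.00811). Gja1 changed by -1.10 relative to Gfap within arrays (SE 0.08), Gjb2 by -0.88 (SE 0.13) and Gjb6 by -1.23 (SE 0.16). Gja1 itself changed by -0.10, so its difference largely restates the rise of Gfap. For Gjb2 and Gjb6, not shown to be above background, the differences may only restate that rise. They depend on the marker set beside the connexin: of the astrocyte markers that did not pass, the water channel Aqp4 was at -0.24 on the log2 scale, S100b at -0.09 and the glycolytic enzyme Aldoc at 0.04, near the value of Gja1 (examples chosen after their values were seen). Each pair with Gfap had no overlap between groups (two-sided exact permutation p = 0.1, the floor of the design). Adjusted over the 4 pairs of this kind, which were chosen after their values were seen, that p was 0.1. The groups lay far apart for Gfap itself, so a gene with little change was all but bound to give this outcome.

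Of 22 measured myelin and mature oligodendrocyte genes, 14 fell with fibrinogen, 1 rose and 7 did not pass, where 3.0% of all genes fell. Their median log2 change was -0.40, and 7 to 9 of them fell when any one array was left out (fewest without fibrinogen replicate 1). With genes below the median brightness left out, 13 of 16 in this list fell, where 627 of 6678 genes did. Mbp, a main protein of compact myelin, had a log2 expression of 11.47, 11.60 and 11.58 on fibrinogen arrays, against 12.10, 11.85 and 11.90 on control arrays. Its fall of 0.40 on the log2 scale (adjusted p = 0.0468 in limma) lost its call with any one array left out (adjusted p = 0.0638 to 0.156). Gjb1 changed by 0.64 relative to Mbp within arrays, without overlap between groups (SE 0.18, two-sided exact permutation p = 0.1, the floor of the design). Mbp was set beside Gjb1 after its fall was seen, so the difference partly restates that fall. The exact permutation p was 0.2 when any one fibrinogen array was left out. This difference too depends on the marker: Ermn, the gene of the list that rose, had a log2 expression of 6.41, 6.27 and 6.82 on fibrinogen arrays, against 5.04, 5.01 and 4.94 on control arrays (adjusted p = 0.00264 in limma), and Ndrg1, which did not pass, had a log2 fold change of 0.16 (both likewise chosen after their values were seen). Of 12 measured progenitor genes, 6 rose (4.16% of all genes rose), 6 did not pass and none fell, and the rises numbered 4 without fibrinogen replicate 1. With genes below the median brightness left out, 8 of the 12 rose, where 829 of 6678 genes did.

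The cultures carried the markers of their label. Pdgfra, the PDGF receptor of progenitors, had a mean log2 expression of 10.67 ± 0.01 with fibrinogen and 10.08 ± 0.13 in control, and the lineage factor Sox10 had 9.18 ± 0.06 with fibrinogen and 9.27 ± 0.07 in control (SD, n = 3 each). Genes of the astrocyte list were bright too: in control arrays 3 of the 14 lay below the median gene. The 14 averaged a log2 expression of 8.05 to 8.09 on fibrinogen arrays and 7.59 to 7.71 on control arrays. Which cells of the cultures carried this RNA was not tested. All 14 microglia and macrophage markers, Aif1 among them at 4.07 with fibrinogen and 4.22 in control, lay below the median gene in control arrays. So did all 7 endothelial and all 7 ependymal and choroid plexus markers, 10 of 11 markers of pericytes, fibroblasts and meninges and 7 of 9 of Schwann cells. Neuron markers were brighter: 5 of 13 lay below the median gene, and they averaged 6.70 to 6.74 on fibrinogen arrays and 6.68 to 6.83 on control arrays. Markers of microglia averaged 4.42 to 4.53 on fibrinogen arrays and 4.62 to 4.73 on control arrays. Of the 14 microglia markers 2 fell (1 or none with any one array left out), of 13 neuron markers 2 rose (1 with any one array left out) and 1 fell, and of the 11 pericyte, fibroblast and meningeal markers 1 rose. Beside these counts, 4.16% of all genes rose and 3.0% fell. No endothelial or ependymal marker passed the test in limma, and none of the 9 Schwann cell markers did in the values as reported. Without control replicate 2, and also with trended and robust moderation, 2 Schwann cell markers rose and 1 fell. With genes below the median brightness left out 2 of 2 rose, and with the dimmest 25% left out 3 of 7. Of all 13355 genes, 379 rose and 213 fell without control replicate 2, and 928 and 689 with trended and robust moderation. With the 2 filters on dim genes, 829 of 6678 and 772 of 10016 genes rose. The part of these cells in the connexin values was not tested. The array medians over all valued probe sets lay between 5.78 and 5.84.

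Of the 16 other connexins listed, 8 were measured, and 0 of the 8 passed an adjusted p of 0.05 in limma. All 8 lay below the median gene in control arrays. Gja5, the connexin of arterial endothelium and heart conduction tissue, was the only one of the 8 with an unadjusted p under 0.05, as 21.1% of all genes had, where 7.16% passed the adjusted threshold. It had a log2 expression of 5.67, 5.94 and 5.54 on fibrinogen arrays, against 4.82, 5.38 and 5.43 on control arrays, without overlap (log2 fold change 0.51, SE 0.18, adjusted p = 0.164), and the change was 0.31 without control replicate 1. Gja3, a lens connexin, was at -0.27 on the log2 scale, with a 95% interval of -0.55 to 0.01 and no overlap between groups, and at -0.15 without fibrinogen replicate 3. Such a lack of overlap was seen in 27.0% of all genes. Gja4, a vascular connexin, was at 0.14 and Gjd2, the neuronal connexin of electrical synapses, at -0.17. Gja6, Gjb5, Gjd3 and Gjd4 were at -0.04, -0.10, -0.06 and 0.06, each with an interval that included 0 and a sign that turned when one of the arrays was left out.

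Pannexins form membrane channels that release ATP and are not known to dock between cells, and all 3 were measured. Panx1, the widely expressed member, had a log2 expression of 7.49, 7.81 and 7.79 on fibrinogen arrays, against 8.04, 8.39 and 8.03 on control arrays. All 3 fibrinogen arrays lay below the control arrays, where 27.0% of all genes had no overlap in either direction. The log2 fold change of Panx1, -0.46, did not pass (SE 0.13, 95% interval -0.77 to -0.14, unadjusted p = 0.0109, adjusted p = 0.0991 in limma). Its adjusted p ranged from 0.0171 with trended and robust moderation to 0.256 without fibrinogen replicate 1, and it also passed (adjusted p = 0.0314) with genes below the median brightness left out. Panx2, a brain pannexin, was at -0.09 and Panx3, a skeletal one, at -0.23 on the log2 scale, and neither passed.

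**Figure D4:**
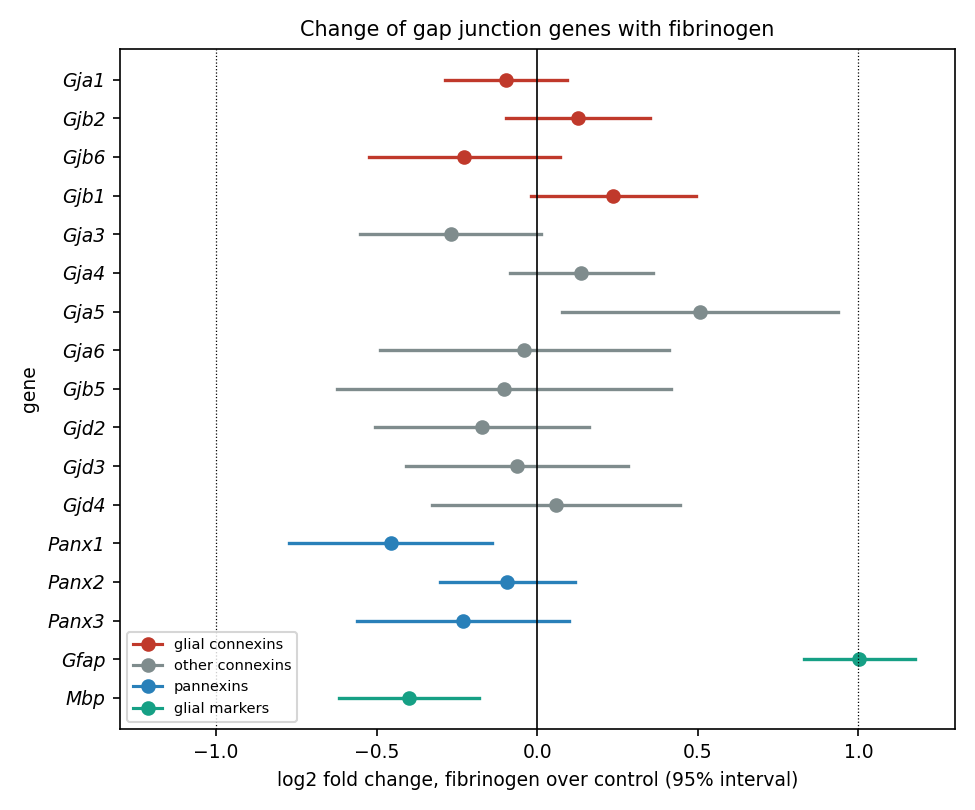
Log2 fold change of fibrinogen over control with its 95% interval from limma (horizontal axis) for the 4 glial connexins (red), 8 other connexins (grey), 3 pannexins (blue) and the markers Gfap and Mbp (green); dotted lines mark a 2-fold change. All 4 red intervals include 0 and end well inside the dotted lines, while Gfap sits at 1.00 and Mbp at -0.40. All intervals are for the measured signal. For Gjb2 and Gjb6, whose signal may be background alone, they set no limit on the transcript.

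Genes listed as partners or regulators of connexins changed in both directions. Of 32 measured members of a list of 37, 5 rose, 2 fell and 25 did not pass, where 4.16% of all genes rose and 3.0% fell. The median log2 change of the list was 0.07. Only 6 of the 32 lay below the median gene in control arrays, and calls were more frequent among bright genes. With genes below the median brightness left out, 829 of 6678 genes rose and 627 fell, beside 9 and 3 of 27 in the list. Mlc1, an astrocyte membrane protein found at junctions and also in the astrocyte list above, had a log2 expression of 8.61, 8.23 and 8.29 on fibrinogen arrays, against 7.36, 7.52 and 7.27 on control arrays. It rose by 0.99 on that scale (SE 0.12, adjusted p = 0.00536 in limma) and kept its call with any one array left out. Cav1 (caveolin, which binds Gja1 protein in lipid rafts) had 10.68, 10.70 and 10.53 on fibrinogen arrays, against 9.49, 9.93 and 9.96 on control arrays. It rose by 0.84 (adjusted p = 0.0144), a call lost without fibrinogen replicate 1 or 2 (adjusted p = 0.0669 and 0.0619).

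The catenin genes Ctnnb1 and Ctnnd1, whose proteins link cadherin junctions to the cytoskeleton, rose by 0.43 and 0.39 on the log2 scale (adjusted p = 0.0259 and 0.0302 in limma). Prkce, a protein kinase C that phosphorylates Gja1 protein, rose by 0.48 (adjusted p = 0.0496). Prkca, another protein kinase C, fell by 0.38, and Dlg1, a scaffold that binds connexins, fell by 0.40 (adjusted p = 0.0485 and 0.0237). These 5 calls were weak: each was lost without any one of at least 5 of the 6 arrays, with highest adjusted p of 0.0976 for Ctnnb1, 0.111 for Ctnnd1, 0.156 for Prkce, 0.147 for Prkca and 0.0919 for Dlg1. Tjp1 (ZO-1), the scaffold best known for binding Gja1 protein, had a log2 fold change of 0.22 and did not pass (adjusted p = 0.139).

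The genes whose pattern over the 6 arrays was most like that of each connexin were found by Pearson's r, given as a description, with the same arrays behind every value. For Gjb1 they were Smagp (r = 0.998), Ndufa2 (0.993) and Hspa13 (0.987), and for Gja1 Dmrtc1c1 (0.976), Khk (0.975) and Iqcf3 (0.973). For Gjb2 they were Elob (0.984), Rhbdl3 (0.979) and Aire (0.974), and for Gjb6 Oplah (0.996), Vom1r37 (0.984) and Or8b101d (0.982). No gene of these 12 passed the test between groups in limma, which their choice for likeness to connexins that did not pass made likely. Among 13355 genes and 6 arrays many such likenesses arise: 20 genes had r over 0.95 with Gja1, 42 with Gjb1, 27 with Gjb2 and 32 with Gjb6.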

How the data were processed

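The deposited table gives the authors' log2 expression, 1 value per probe set and array. Per the submitters' processing notes RMA and limma were used; their versions, settings and order are not stated. Values were present on every array for 23631 of 26312 probe sets and on no array for 2681. Probe sets were named from the platform's annotation, the single-symbol probe set with the highest mean stood for a gene, and no build is given for the files. The groups were fitted over all 13355 genes with limma 3.58.1 under R 4.3.3 (default eBayes moderation, two-sided test, neither covariates nor a brightness filter), with Benjamini-Hochberg adjustment and a threshold of 0.05. Errors are moderated SE for single genes, unmoderated SE of the within-array difference for pairs of genes, or SD over 3 arrays. Intervals are 95%. With 3 arrays a group the median SE of a log2 fold change was 0.104, and that number limits the precision. Changes of a pair of genes were compared by two-sided exact permutation of the within-array difference. The model was tested on simulated arrays. No 2 arrays held the same values (largest correlation 0.9949).

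The connexins, the 12 gene lists (190 memberships, 152 measured) and the tests were chosen with earlier results of these data known. The genes named were the 4 connexins, every measured other connexin and pannexin, list partners past the threshold, 3 nearest patterns per connexin (leaving out LOC, RGD and Olr symbols) and 6 marker genes. Tjp1, Aqp4, S100b, Aldoc, Ermn, Ndrg1, the olfactory receptor class and the pairs with Gfap and Mbp were added after values were seen. Alternatives were the mean of a gene's probes, median centring, 2 filters on dim genes, other moderation, no moderation, a replicate block, all valued probes and leaving out each array.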

Additional observations from a re-analysis of the deposited data

How the results depend on the processing

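Under every alternative run that kept the gene, Gja1, Gjb1, Gjb2 and Gjb6 did not pass an adjusted p of 0.05 in limma. That held for Gja1 under 13 alternatives (adjusted p 0.352 to 0.788), Gjb1 under 14 (0.117 to 0.505), Gjb2 under 12 (0.293 to 0.738) and Gjb6 under 12 (0.246 to 0.644). Each gene also kept its direction, but only median centring and leaving out an array could have turned it. The other alternatives leave the log2 fold change of a gene with 1 probe set as it is. Gja1, Gjb2 and Gjb6 have no value with genes below the median brightness left out, nor Gjb2 and Gjb6 with the dimmest 25% left out. With any one array left out, the log2 fold change ran from -0.15 to -0.07 for Gja1, 0.17 to 0.33 for Gjb1, 0.08 to 0.21 for Gjb2 and -0.32 to -0.12 for Gjb6. The change relative to Gjb1 ran from -0.46 to -0.25 for Gja1, -0.59 to -0.33 for Gjb6 and -0.24 to 0.03 for Gjb2, whose sign turned without control replicate 3 (0.033); the cause was not tested. Turns of sign with one array left out also came for Gja6 (-0.17 to 0.16; 0.155 without control replicate 1 and 0.08 without fibrinogen replicate 3), Gjb5 (-0.32 to 0.08; 0.077 and 0.035 without the same arrays), Gjd3 (-0.20 to 0.10; 0.097 without control replicate 1) and Gjd4 (-0.10 to 0.16; -0.07 without control replicate 1 and -0.098 without fibrinogen replicate 2).

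The count of all called genes, 956, was 1456 with genes below the median brightness left out (fewer genes tested), 1617 with trended and robust moderation, 500 with the unmoderated test, 343 with the replicate block and 358 to 592 with one array left out (fewer samples). With arrays centred on their medians, which moves the median change of all genes to -0.04, 434 genes were higher and 516 lower, beside 555 higher and 401 lower in the values as reported; the 4 connexins kept their directions. Replicate numbers are shared by the groups, but same-numbered arrays deviated with correlations of 0.02, -0.14 and -0.07, so the numbers were not taken as pairs. With the replicate block, Gjb6 had an adjusted p of 0.246 and Gjb1 of 0.407. The list of connexin partners had 7 calls, 1 with the replicate block (Mlc1 alone), 1 with the unmoderated test (Dlg1) and 1 to 5 with one array left out. It had 9 higher and 3 lower of 27 with genes below the median brightness left out, and of 32 with trended and robust moderation. With the dimmest 25% left out it had 6 higher and 2 lower of 29. Calls among all genes were more numerous under these settings too. They were 829 higher and 627 lower of 6678 with genes below the median brightness left out. With trended and robust moderation they were 928 and 689 of 13355, and with the dimmest 25% left out 772 and 518 of 10016. Dim signal limits what can be said of Gjb2 and Gjb6, and 3 arrays a group limit every pair comparison to an exact permutation p of 0.1 or more.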
